A study of Mus musculus with 24 samples.

Results

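Region by region, 5-hydroxymethylcytosine (5hmC) was compared in the striatum of unstressed mice heterozygous for Cntnap2 and unstressed wild-type mice. All regions on chromosomes 1 to 19 of the deposited table for this comparison were taken, which gave 38080 regions out of 160195 in the 5 tables of the series; 27 more on chromosome X were fitted with them and are not described. Every library came from a female C57BL/6 mouse, with 3 mice per group. The het control mice carried 1 altered Cntnap2 allele and their mothers were not stressed. The WT control mice carried none and their mothers were likewise not stressed. The other groups, het stress and WT stress, were born to dams put through 7 days of variable stress from embryonic day 12.5, and are used below as further mice of both genotypes. All offspring were tagged at postnatal day 12 and weaned at day 18. The labels do not give the age at which tissue was taken, the kind of Cntnap2 mutation or the litters, and a p-value here sets a difference against the spread among the mice deposited.

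5hmC is made from 5-methylcytosine by the TET dioxygenases, which use oxygen and 2-oxoglutarate. Base excision enzymes can remove its oxidation products, but in neurons much of it persists, and brain DNA is among the richest in the mark. In brain it is known to collect over the bodies of active genes and at enhancers. Cntnap2 encodes Caspr2, an adhesion protein of the neuronal membrane that clusters potassium channels next to nodes of myelinated axons, and the gene lies on mouse chromosome 6. The tissue was punches of striatum, listed from 1.53 mm (anterior) to -0.95 mm (posterior), so the counts sum over all cells in the punches. Fewer cells that carry a mark cannot be told apart from less of the mark per cell.

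Each value is the number of reads from 5hmC-enriched DNA that fall in a region. The regions were 1001 to 9108 bp long, with a median of 1139 bp, and covered 50.4 Mb. Library totals over the table were 2099403 to 3352402 counts in het control mice and 2045051 to 4331517 in WT control mice, and a typical autosomal region held a median of 41 to 90 counts per library. WT control replicate 1, the shallowest library, stood apart: its log2 CPM (the count scaled to library size by TMM) correlated with the other 5 at r = 0.753 to 0.827, and 113 of its regions were below 0.5 of the mean of the others, against 3 to 55 in the other libraries. RNA of the same tissue contained striatal markers. The list for striatal projection neurons held 12 symbols, with Drd1 entered under its older symbol Drd1a as well, and 11 symbols were found. Their summed level was 3864 to 8117 TPM in het control and 5510 to 6535 TPM in WT control mice. Thalamus markers (3 of 3 found) summed to 8.62 to 10.2 TPM in het control and 14.8 to 65.2 TPM in WT control mice, without overlap; oligodendrocyte, choroid plexus and cortex markers overlapped. The part that such neighbouring tissue has in the 5hmC values was not tested. In het control replicate 1 the animal numbers of RNA and 5hmC disagree, and it is not known whether they are 1 mouse.

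Over the table as a whole the genotypes differed little. Of the 38080 regions, 18982 had a higher fitted level in het control mice and 19098 a lower one, with a median log2 fold change of -0.00077. The middle 90% of regions lay between -0.34 and 0.32 and the extremes were -1.07 and 0.88, so a 2-fold change was exceeded in 1 region. A log2 difference of more than 0.5 in either direction was found in 595 regions, 1.56%. The median standard error of a region's log2 fold change was 0.17, so most regional differences were of the size of their own error. By edgeR's quasi-likelihood test, adjusted by Benjamini-Hochberg over the whole table, 1 region was called at an adjusted p of 0.05, which is 0.00263% of regions, and it was lower in het control mice. None was called higher, though 1388 regions (3.64%) were higher and 1472 (3.87%) lower at an unadjusted p under 0.05.

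**Figure D1:**
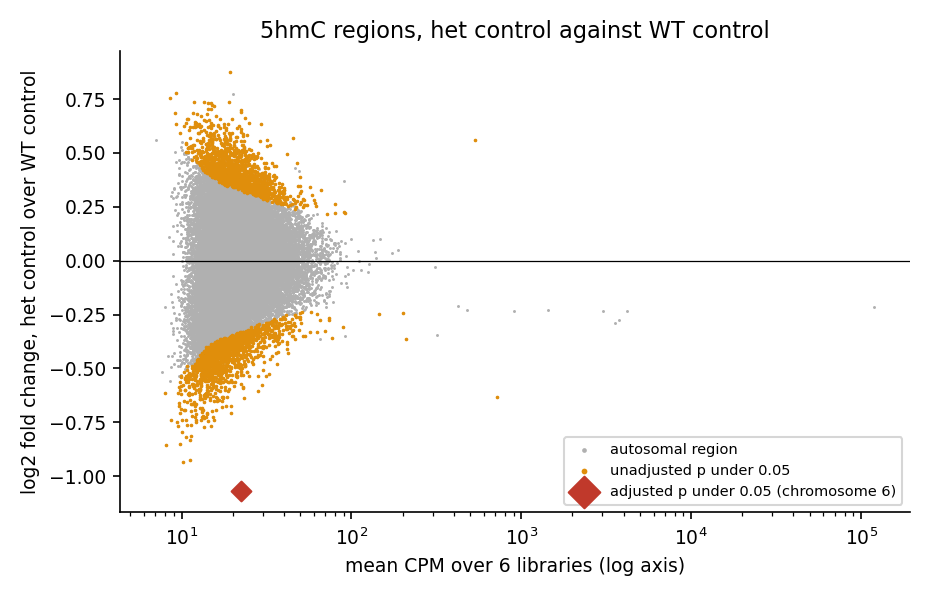
Log2 fold change of each autosomal region (het control over WT control, vertical axis) against its mean CPM over the 6 libraries (horizontal log axis). The cloud is centred on 0, and the 1 region with an adjusted p under 0.05, on chromosome 6, lies at -1.07, below all others.

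The called region was chr6:34450938-34451949 (mm9), 1012 bp long and 13416 bp from the nearest other region. It held 38, 51 and 32 counts in the 3 het control mice, against 47, 144 and 107 counts in the 3 WT control mice. Scaled for depth these were 18.1, 14.96 and 11.6 CPM in het control and 23.4, 33.1 and 33.5 CPM in WT control mice. Every het control value was thus below every WT control value, and the lowest WT control value belongs to replicate 1, the library that stood apart. The means were 14.9 ± 3.24 CPM in het control and 30.0 ± 5.76 CPM in WT control mice (SD, n = 3 each). The log2 fold change was -1.07 ± 0.18 (SE), with an adjusted p of 0.00271 by edgeR. The call did not hold by DESeq2 (-1.04, adjusted p = 0.398), nor by edgeR without WT control replicate 3 (log2 fold change -0.998, adjusted p = 0.391), nor after leaving out het control replicate 3 (-0.93, adjusted p = 0.182). Over the 16 alternatives the log2 fold change stayed between -1.20 and -0.93. The mm9 gene annotation needed to say which gene, exon or intron the region lies in was not used here.

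The 5 regions of smallest p with higher levels in het control mice were small enrichments of 1001 to 2857 bp. At chr10:60470500-60471799 the counts were 51, 78 and 75 in het control and 28, 54 and 46 in WT control mice. That gave 24.8 ± 2.22 CPM in het control and 13.6 ± 1.04 CPM in WT control mice (SD, n = 3 each), with every het control value above every WT control value. Its log2 fold change of 0.88 ± 0.18 was the highest of the table, and its adjusted p was 0.0927 by edgeR, so it did not pass. At chr14:115263400-115264400 the levels were 22.4, 26.4 and 22.5 CPM in het control and 13.4, 13.1 and 16.6 CPM in WT control mice, a log2 fold change of 0.74 ± 0.18. At chr14:104215500-104216599 they were 28.1, 26.7 and 29.8 CPM in het control and 13.9, 18.4 and 18.2 CPM in WT control mice (0.70 ± 0.16). These groups did not overlap either, and the spread within het control mice was small at both sites. The remaining higher regions were chr8:120452500-120454099 (36.1 ± 2.76 CPM in het control, 22.4 ± 5.64 CPM in WT control) and chr4:42086400-42089256 (54.1 ± 9.22 CPM in het control, 36.2 ± 6.67 CPM in WT control). All 4 had an adjusted p of 0.516 by edgeR.

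Next to the called region, the 4 regions of smallest p with lower levels in het control mice also separated the groups. The region chr5:50358700-50359799 held 47, 75 and 62 counts in het control and 69, 134 and 119 in WT control mice. Its scaled levels were 22.3 ± 0.260 CPM in het control and 34.1 ± 3.25 CPM in WT control mice (SD, n = 3 each), so the het control mice were nearly alike. The log2 fold change was -0.60 ± 0.15 (edgeR adjusted p = 0.588). At chr15:35351382-35352899 the means were 14.8 ± 0.431 CPM in het control and 24.2 ± 3.20 CPM in WT control mice, and at chr14:94253938-94255038 they were 10.7 ± 2.03 CPM in het control and 18.9 ± 1.28 CPM in WT control mice (log2 fold changes -0.68 and -0.77). At chr4:48275295-48277922 they were 23.7 ± 2.39 CPM in het control and 35.5 ± 3.28 CPM in WT control mice (-0.58; edgeR adjusted p = 0.598 for all 3). In the whole table the 2 groups of 3 libraries did not overlap in 5211 regions, 13.7%, of which 2549 (6.69%) were higher and 2662 (6.99%) lower in het control mice, so the separation seen in all 10 named regions is common among the other regions too.

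**Figure D2:**
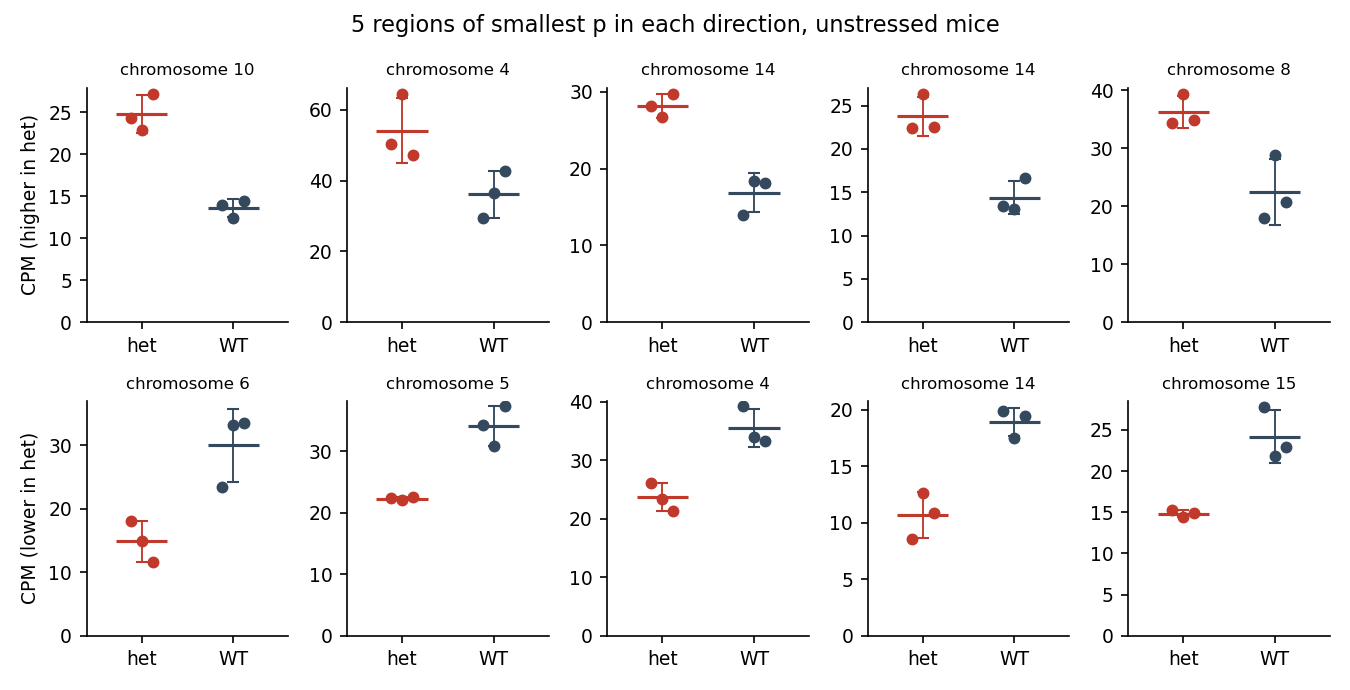
CPM in each library (points), group mean (line) and SD (bars) for the 5 regions of smallest p in each direction, het control mice left and WT control mice right in each panel. The groups do not overlap in any of the 10 panels; the called region is the left panel of the lower row.

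The regions of the table are not the same kind of region throughout. The submitters' 5 tables share regions: the same start and end often recur from table to table, and at such regions the counts of a shared library were identical in all 124905 values compared. Of the 38080 regions, 13076 (34.3%) recurred in the other table that holds the het control libraries but in neither of the 2 other tables that hold the WT control libraries. Their median log2 fold change was 0.12, and 10289 of them (78.7%) were higher in het control mice. Another 15019 regions (39.4%) recurred only in the tables with WT control libraries. Their median was -0.12, and 23.5% were higher in het control mice. The 9453 regions with no recurrence (24.8%) had a median of 0.0029, and the 532 that recurred on both sides a median of 0.07.

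This split takes in most of the regions with a small p. Of the 1388 regions that were higher at an unadjusted p under 0.05, 1105 recurred only with het control libraries and 71 only with WT control libraries. Of the 1472 that were lower, 21 recurred only with het control and 1237 only with WT control libraries. Of the named regions, 4 of the 5 higher ones recurred only with het control libraries, and all 5 lower ones, the called region included, only with WT control libraries. The same libraries enter both sides of this count, so it describes the table and carries no test. The labels do not say how regions were selected, and whether the selection sets the direction of a region was not tested.

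**Figure D3:**
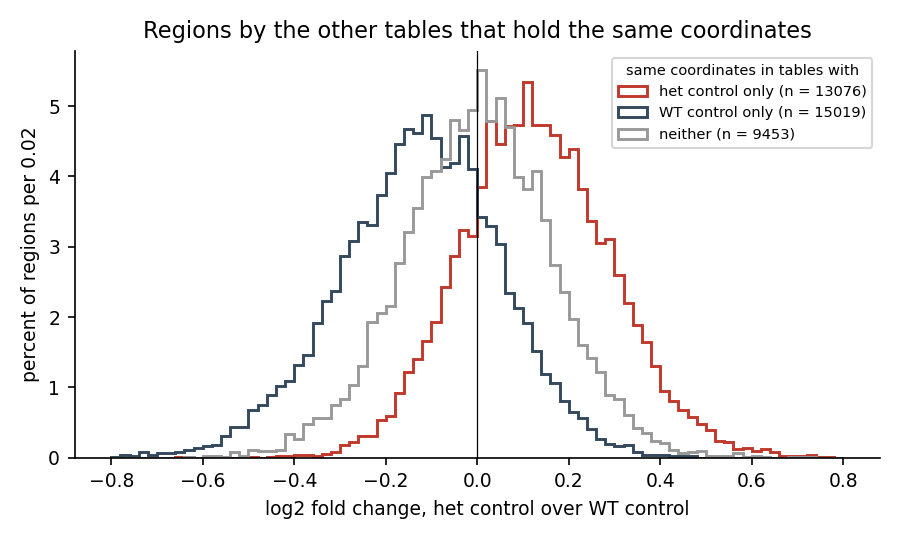
Distribution of the log2 fold change (het control over WT control, horizontal axis; percent of regions per step of 0.02, vertical axis) for regions whose coordinates recur only in tables with het control libraries, only in tables with WT control libraries, or in neither. The first curve is centred at 0.12, the second at -0.12 and the third near 0.

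The 6 stressed mice are other animals, and none of their libraries is in the table, so they give a reading in mice that the table's own counts did not use. For 11542 of the autosomal regions the same start and end occurred in tables that hold the stressed libraries of both genotypes, so all 12 libraries were counted over the same bases; 11076 of these recurred only with WT control libraries. This comparison was added after the data had been seen, and it sets counts from several tables side by side, scaled over these 11542 regions. Whether the stressed libraries took part in the selection of these regions is likewise not said. Scaling over these regions alone takes out any shift that they share, so fold changes on this scale are relative to them.

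The called region on chromosome 6 was not paired by overlap with any region of the table of het stress against WT stress. Its stressed counts come from the other tables, where the same start and end recur. Among the 11542 regions it had the smallest p in the stressed mice as well. It held 41, 30 and 31 counts in the 3 het stress mice and 49, 66 and 88 in the 3 WT stress mice. On the scale of these regions that was 59.2, 81.1 and 70.8 CPM in het stress and 117, 119 and 126 CPM in WT stress mice. Each het stress value was below each WT stress value, as in the unstressed mice, where the same scale gave 75.1, 58.9 and 47.8 CPM in het control and 87.9, 124 and 125 CPM in WT control mice. The means were 70.3 ± 11 CPM in het stress and 121 ± 4.86 CPM in WT stress mice (SD, n = 3 each), a log2 fold change of -0.83 ± 0.19 (SE). For this 1 region the two-sided exact permutation p was 0.1, the smallest that 3 against 3 can give. The edgeR test gave an unadjusted p of 1.69e-05, and an adjusted p of 0.195 over all 11542 regions, so it was not called. No region was called in the stressed mice by edgeR; 521 (4.51%) had an unadjusted p under 0.05 and in 1117 (9.68%) the groups did not overlap.

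The genotype difference of the called region in control mice minus that in stressed mice was -0.13 ± 0.26 on the log2 scale (edgeR adjusted p = 0.966). No region differed in this test by edgeR, and 764 (6.62%) had an unadjusted p under 0.05. Without a single stressed library the log2 fold change of the called region in stressed mice lay between -0.92 and -0.68, with an edgeR adjusted p of 0.165 to 0.917. It kept the smallest p of all regions in 4 of these 6 fits; it was number 64 without het stress replicate 1 and number 4 without WT stress replicate 3. WT stress replicate 2 goes against its label as a female in the RNA data, with 1.32 TPM of Xist, the RNA that silences 1 X chromosome in females, against 23.1 to 109 TPM in the other 11 libraries. Without it the value for the called region was -0.84 ± 0.20.

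**Figure D4:**
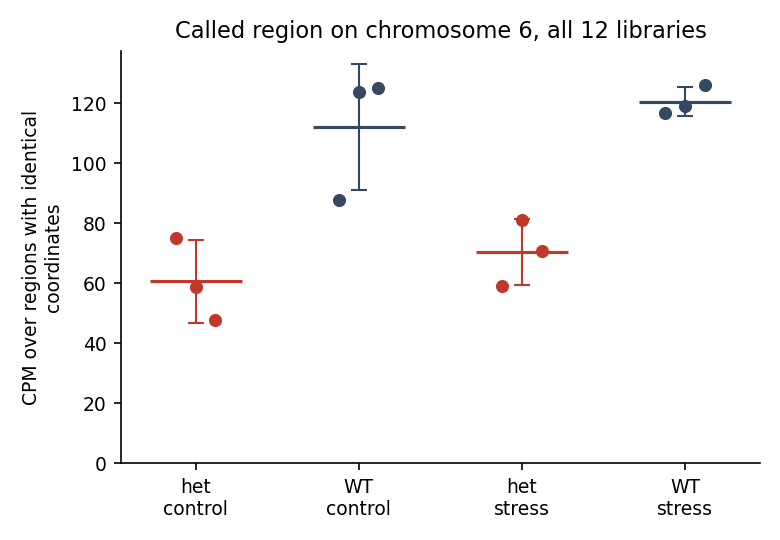
Level of the called chromosome 6 region in each of the 12 libraries (points; CPM over the 11542 regions with identical coordinates), with group mean (line) and SD (bars). The 6 het mice lie between 47.8 and 81.1 CPM and the 6 WT mice between 87.9 and 126 CPM.

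All 6 het mice were below all 6 WT mice at this region. Such a separation, in either direction, was found in 6 of the 11542 regions, 0.052%. The called region was chosen by its p in the 6 control libraries, where its groups were already separate. The share is therefore no test of it. Of the other 5, named here because of that count and so after their values were seen, chr6:35003288-35004289 was also lower in het mice and also on chromosome 6 (log2 fold change -0.30 in control and -0.36 in stressed mice). It did not pass in either comparison, nor did chr10:105270075-105271538 (lower), chr5:97428099-97429099, chr10:82767999-82769158 and chr17:88841799-88845699 (higher).

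Stressed counts were also available for some of the other named regions, and none of these passed (edgeR). At chr5:50358700-50359799 the level was 108 ± 23.8 CPM in het stress and 109 ± 12.0 CPM in WT stress mice, a log2 fold change of -0.05 ± 0.18. At chr15:35351382-35352899 the log2 fold change was 0.03 ± 0.21. At chr14:94253938-94255038 the level was 68.0 ± 6.54 CPM in het stress and 54.2 ± 6.68 CPM in WT stress mice (0.32 ± 0.22), opposite in sign to the unstressed mice. Of the higher regions, chr14:104215500-104216599 and chr4:42086400-42089256 overlapped a region of the stressed genotype table; the log2 fold changes there were 0.34 ± 0.15 and -0.05 ± 0.20. At the first of these the direction was that of the unstressed mice, with an edgeR adjusted p of 0.629. Of the lower regions, chr4:48275295-48277922 overlapped a stressed region at 0.24 ± 0.26, opposite in sign to the unstressed mice. The region of highest count, chr2:98501990-98507999, was at 0.08 ± 0.47, and the widest, chr9:3015000-3024107, at 0.10 ± 0.28. Both were likewise opposite in sign to the unstressed mice.

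Across the table, fold changes in stressed mice ran weakly opposite to those in unstressed mice. By position, 17062 of the 38080 regions (44.8%) overlapped 17032 of the 24966 autosomal regions (68.2%) of the stressed genotype table, which gave 16861 pairs. Among the stressed regions 1849 (7.41%) had an unadjusted p under 0.05, 905 higher (3.62%) and 944 lower (3.78%) in het stress mice, and none was called by edgeR. In 46.3% of pairs the fold changes had the same sign, and they correlated at r = -0.13 (Spearman -0.12) across regions, which share their libraries and are not independent. Of 419 paired regions that were higher in het control mice at an unadjusted p under 0.05, 146 (34.8%) were also higher in het stress mice, against 49.1% of all pairs. Of 601 that were lower, 248 (41.3%) were also lower in het stress mice, against 50.9% of all pairs. The correlation was negative on all 19 chromosomes. It was -0.12 among regions that recur only with het control libraries, -0.11 among those that recur only with WT control libraries and -0.03 among those that recur with neither. It was -0.0596 without het stress replicate 3, -0.0632 without WT stress replicate 3 and -0.196 without het stress replicate 1. Over the 11542 regions with identical coordinates it was -0.17, with 44.8% of the same sign.

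**Figure D5:**
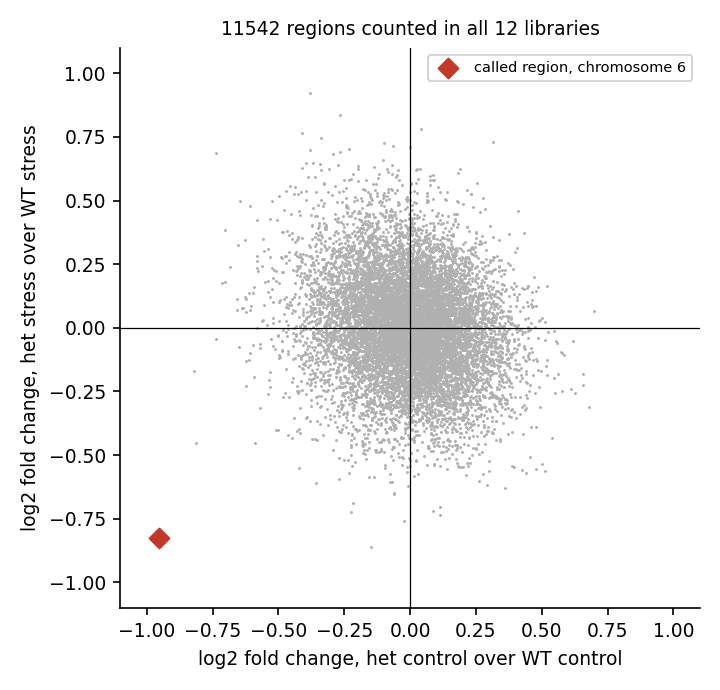
Log2 fold change in unstressed mice (het control over WT control, horizontal axis) and in stressed mice (het stress over WT stress, vertical axis) for the 11542 regions counted in all 12 libraries. The called region on chromosome 6 lies alone at the lower left, at -0.95 and -0.83 on this scale, while the cloud of the other regions leans slightly the opposite way.

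Chromosome 6 carries Cntnap2 and was looked at for that reason. It held 2253 of the regions, 15.4 per Mb, within the range of 8.51 per Mb on chromosome 7 to 21.2 per Mb on chromosome 19. Its median log2 fold change was -0.015, but 0.0118 when libraries were scaled by their totals only, so its sign depends on the scaling. The median of all regions was 0.0259 under that scaling, above that of chromosome 6 as in the main fit. It had 92 regions higher and 108 lower at an unadjusted p under 0.05; at 8.88% that was the highest share of the 19 autosomes, followed by chromosomes 7 (8.72%) and 4 (8.08%), and the lowest such shares were on chromosomes 19 (6.43%), 17 (6.46%) and 8 (6.63%). The replicate SD of a library's median on chromosome 6 was 0.008. As deviations from the mean of the 6 libraries, these medians were 0.0148, -0.0067 and -0.0005 in het control mice. In WT control mice they were 0.0115, 0.0119 and 0.0069, so the groups overlapped. Medians ran from -0.019 on chromosome 16, -0.015 on chromosome 6 and -0.012 on chromosome 2 to 0.0094 on chromosome 7, 0.0105 on chromosome 17 and 0.014 on chromosome 8.

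The share of autosomal counts on chromosome 6 was 5.12 ± 0.025% in het control and 5.08 ± 0.039% in WT control mice (SD, n = 3 each; two-sided exact permutation p = 0.3, adjusted p = 0.3 over 19 chromosomes). The difference turned round, to -0.0559 percentage points, when the region with the highest count was left out. On chromosomes 3, 10, 12 and 15 the share was higher in all het control than in all WT control mice, with an exact permutation p of 0.1 each, the smallest possible, and an adjusted p of 0.238. Without the region with the highest count, chromosome 12 turned round, to -0.0128 percentage points, and on chromosome 10 the groups overlapped. The groups then were separate on chromosomes 3, 8, 13 and 15 (higher in het control mice) and 2 (lower), with an adjusted exact permutation p of 0.38. Chromosome 2 held 17.7 ± 0.778% in het control and 19.1 ± 0.853% in WT control mice (exact permutation p = 0.2), most of it the region chr2:98501990-98507999. That region alone held 10.4 to 12.0% of the counts in het control and 11.6 to 13.3% in WT control mice, with a log2 fold change of -0.21 ± 0.16 (edgeR adjusted p = 0.765).

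In steps of 5 Mb, the called region fell in the step from 30 to 35 Mb of chromosome 6, which held 199 regions. Of these, 127 were lower in het control mice, 17 of them and 8 of the higher ones at an unadjusted p under 0.05, and the median was -0.07. In the stressed genotype table the same step held 132 regions, of which 56 were lower in het stress mice, with a median of 0.03. Chromosome 6 medians were negative in each of the steps from 5 to 40 Mb that both tables cover with at least 20 regions (-0.11 to -0.03), whereas those in stressed mice were of either sign (-0.10 to 0.03). Within this stretch, chr6:33706126-33707260 is named after its value was seen: it had 14.2 ± 0.951 CPM in het control and 22.5 ± 2.12 CPM in WT control mice (log2 fold change -0.68 ± 0.18, edgeR adjusted p = 0.598). An overlapping region of the stressed table had 22.7 ± 1.33 CPM in het stress and 29.5 ± 1.55 CPM in WT stress mice (-0.37 ± 0.19, edgeR adjusted p = 0.683), without overlap in either comparison. Among the 1005 paired regions on chromosome 6, it was the 1 that was separated lower in both (0.0995%), while 2 were separated higher in both and 5 in opposite directions. Over all chromosomes 42 of 16861 pairs were separated lower in both (0.249%), 28 higher in both and 171 in opposite directions.

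Elsewhere, 443 steps of 5 Mb held at least 20 regions, and their medians ran from -0.20 to 0.15. The lowest were chr15:15000001-20000000 (-0.20; 21 of 24 regions lower), chr16:65000001-70000000 (-0.17; 60 of 77 lower) and chr14:90000001-95000000 (-0.14; 57 of 80 lower). The highest were chr5:125000001-130000000 (0.15; 21 of 24 higher), chr8:115000001-120000000 (0.14; 39 of 44 higher) and chr2:165000001-170000000 (0.14; 34 of 47 higher). Neighbouring regions leaned the same way only weakly: the log2 fold changes of neighbours less than 1 kb apart correlated at 0.12 (3267 pairs), and those of neighbours over 100 kb apart at 0.06 (5177 pairs).

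Direction also went with level and width. Among the 9520 regions of lowest level 41.7% were higher in het control mice, and among the 9520 of highest level 54.4%. Among the 9520 narrowest regions 54% were higher in het control mice, and among the 9520 widest 46.5%. These regions share 6 libraries, so the percentages carry no test. In shares of counts per library, the genotypes overlapped among the regions of lowest level, of highest level and of least width. At the lowest level het control replicate 1 (15.53%) exceeded WT control replicate 2 (15.35%), and WT control replicate 1 was highest (16.31%). Among the widest regions the groups were just separate, with at most 36.75% in het control and at least 36.76% in WT control mice. At the dense end, 13 regions had more than 10 times the median CPM per kb of region, and 12 of them had lower values in het control mice, with a median log2 fold change of -0.23. They are not 13 separate places: 6 lie side by side at chr9:2999662-3037199, with log2 fold changes of -0.29 to -0.21. The member with higher values in het control mice was chr4:118219800-118221599 (0.56, edgeR adjusted p = 0.645), named after its value was seen. Of the 13, 3 had an unadjusted p under 0.05 (23.1%, against 7.51% of all regions), and none was called by edgeR in the main fit. With the replicate number as a block, 6 of the 13 were called. The widest autosomal region, chr9:3015000-3024107, belongs to this set, with a log2 fold change of -0.29 ± 0.16. So does chr6:103598595-103599649, with 560 ± 132 CPM in het control and 870 ± 234 CPM in WT control mice and overlapping groups (-0.63 ± 0.16, edgeR adjusted p = 0.598). It was called by edgeR without WT control replicate 2 (-0.84, adjusted p = 0.0181) and without het control replicate 1 (-0.84, adjusted p = 0.0295). The fit with the replicate number as a block called it too (-0.62, edgeR adjusted p = 3.19e-16). WT control replicate 1 was the highest of the 6 libraries at chr2:98501990-98507999, at chr9:3015000-3024107 and at this chromosome 6 region. Het control replicate 1 was likewise the highest het control library at each of these regions. Within each replicate number the het control value there was below the WT control value. The part of either library in the dense set was not tested.

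No gene for the enzymes and proteins that write, read and remove 5hmC passed the RNA test between unstressed het and WT mice. Of 34 listed genes 33 could be tested, with 17 higher and 16 lower in het control mice, a median log2 fold change of 0.02 and a range of -0.26 to 0.25. Over all 15955 genes the median was 0.003 and 50.7% were higher. In none of them were the groups separate in TPM, against 506 of all genes (3.17%). By edgeR none of the 33 passed and none had an unadjusted p under 0.05, against 1 gene called over all genes (0.00627%) and 235 (1.47%) at an unadjusted p under 0.05. Of the TET dioxygenases, Tet1 was at 0.787 ± 0.571 TPM in het control and 0.747 ± 0.832 TPM in WT control mice (SD, n = 3 each). Tet2 was at 2.05 ± 1.06 TPM in het control and 2.37 ± 1.58 TPM in WT control mice. Tet3 was at 2.96 ± 2.02 TPM in het control and 2.90 ± 2.49 TPM in WT control mice. For these 3 genes the spread within each group was far larger than the difference between groups, and the standard errors of the log2 fold changes were 0.51, 0.35 and 0.57.

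The 5 list members with the smallest p did not pass either. The thymine DNA glycosylase genes Mbd4 and Tdg had log2 fold changes of 0.24 ± 0.15 and 0.20 ± 0.15. Smug1, a uracil DNA glycosylase, had 0.25 ± 0.21, and the CXXC zinc finger gene Cxxc5 -0.17 ± 0.14. Gadd45a, a stress-induced gene tied to DNA demethylation, had -0.26 ± 0.25. Cntnap2 itself was at 42.5, 36.0 and 45.97 TPM in het control and 43.5, 40.3 and 55.1 TPM in WT control mice, overlapping groups with a log2 fold change of -0.36 ± 0.22 on counts (edgeR adjusted p = 0.99999). The gene that was called, the pseudogene Gm6736, lies on chromosome 12 in RefSeq; it was at 13.9 ± 0.888 TPM in het control mice, while 2 of the WT control mice were listed at 0 and the other at 0.21 TPM (edgeR adjusted p = 0.0110). Whether its reads come from near-identical copies was not tested. The call ended without het control replicate 2 or in a fit on the 6 control libraries alone, where no gene passed.

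RNA could be set beside 5hmC by chromosome only, since no mm9 gene positions were used. A chromosome was found by symbol for 14805 of the genes tested (92.8%). The median log2 fold change of RNA per chromosome and that of 5hmC correlated at r = 0.42 (Spearman 0.43) over the 19 autosomes, which is a description of medians that all lie close to 0. On chromosome 6 the medians were -0.0125 for RNA (741 genes) and -0.015 for 5hmC. All het control RNA libraries were deeper (22124404 to 24039691 expected counts) than all WT control libraries (17416705 to 18405369), which cannot be told apart from genotype in the RNA values.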

How the data were processed

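The members, gene lists and tests were chosen with earlier results of these data known. Per the submitters' processing notes, Bowtie 0.12.7 placed the reads of 5hmC-enriched DNA on the mm9 build. In the deposited tables each value is a raw count of reads in 1 region of 1 library, per the file headers. For RNA the same notes name RSEM with Bowtie and NCBIM37, and the deposited gene files hold expected counts and TPM, per the file headers; expected counts were rounded. The selection of regions is not described in the labels.

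Counts were filtered with filterByExpr (all regions passed), scaled by TMM and tested with edgeR 4.0.16 (glmQLFit robust, glmQLFTest) in R 4.3.3, two-sided, adjusted by Benjamini-Hochberg over the whole table and called at 0.05. RNA was fitted over all 12 libraries with 4 group means, contrast het control minus WT control. A standard error is the absolute log2 fold change over the square root of F. Scripts were tested on simulated data. DESeq2 1.42.0 and limma 3.58.1 were alternatives. Overlaps used bedtools 2.31.1 with at least 1 bp. Positions are 1-based, as in the files. The groups share replicate numbers, which the labels do not tie to a litter, batch or day. No library was a copy of another: between libraries the chi-square per degree of freedom was 1.16 to 2.29. Intervals of n = 3 groups are given as SD.

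Named regions are all called ones, the 5 of smallest p in a direction with fewer than 5 calls, the highest and the widest. Named genes are Cntnap2, called genes, the TET genes and the 5 list members of smallest p. Gene symbols came from a table of identifiers and chromosomes from RefSeq (GRCm38.p6), of which no coordinate was used.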

Additional observations from a re-analysis of the deposited data

Results flagged for a closer look

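At the region chr4:48275295-48277922 the genotype groups were separate in opposite directions in the unstressed and the stressed mice. In unstressed mice its log2 fold change was -0.58, with 26.2, 23.5 and 21.4 CPM in het control and 39.3, 34.0 and 33.2 CPM in WT control mice. In stressed mice an overlapping region, chr4:48276851-48277973, was at 0.24, with 16.6, 16.4 and 17.9 CPM in het stress and 12.5, 13.2 and 16.4 CPM in WT stress mice. In the stressed mice the groups are barely apart: the lowest het stress and the highest WT stress value are both 16.4 CPM when rounded, and the log2 fold change has a standard error of 0.26 (edgeR adjusted p = 0.848). The regions overlap in part only, and the difference between the conditions was not tested. Over all chromosomes 171 of 16861 paired regions were separate in opposite directions.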

How the results depend on the processing

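The count of called regions (1) was 0 by DESeq2, with 751 regions at an unadjusted p under 0.05, 0 to 6 when 1 library was left out, and 25 with the replicate number as a block (17 higher, 8 lower; 6 of them among the 13 densest regions). The called region was among those called in every fit that called any. The main fit held no block because the labels tie the numbers to no litter, batch or day. Same-numbered libraries deviated together at r = 0.141, 0.185 and 0.0229. In both groups replicate 1 had the lowest library total and replicate 2 the highest. Differently numbered libraries of the 2 groups were at r = -0.168 to 0.0313, below the first 2 of these values. Whether the numbers pair the mice was not tested. Without WT control replicate 2, 6 regions were called, and without het control replicates 1 or 2, 2 each; without WT control replicate 3 or het control replicate 3 none was. The share of regions higher in het control mice (49.8%) was 55.2% with library totals only and 46% with upper-quartile scaling, and 49.2 to 50.2% with 1 library left out. The chromosome 6 median (-0.015) was 0.0118 with library totals only and -0.0338 with upper-quartile scaling, so its sign depends on the scaling. The median of all regions moved along with it, from -0.00077 to 0.0259 and -0.0197, and lay above it each time. Of 304 alternative chromosome medians, 55 moved by more than the replicate SD, among them that of every autosome with library totals only. Without the highest region the chromosome 6 share of counts reversed to -0.0559 (exact permutation p = 0.2) and that of chromosome 12 to -0.0128 (exact permutation p = 0.7). The same-sign share with stressed mice (46.3%) was 43.7 to 48.2% with 1 library left out and 44.8% with identical coordinates, an alternative added after seeing the data. RNA calls (1) were 2 by DESeq2, 0 on the control libraries alone, and 0 to 2 with 1 library left out. Of 160 alternative fits of the 10 named regions, 0 reversed the direction, 8 gained a call and 3, all of the called region, lost it. The gained calls came with the replicate number as a block, except that of chr8:120452500-120454099 without WT control replicate 2. These regions were chosen by their p in the same libraries, and the other filter settings kept all regions and repeated the main fit. The lack of reversals is therefore no test of their direction. The median standard error of a region's log2 fold change, 0.17, holds counting error and the spread among mice together.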
